A study of Mus musculus with 26 samples.

Results

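Interferon-stimulated genes are the genes that cells switch on when an interferon reaches them, and 39 of them were followed here across mammary tumors and tumor organoids in which the long non-coding RNA Malat1 was targeted with antisense oligonucleotides (ASOs). The members were given as gene symbols; all 39 were matched to the versioned Ensembl gene IDs of the count tables, which hold 37310 genes, and all 39 passed the filter on low counts in every fit. The 26 RNA-seq libraries form 7 groups from C57BL/6 mice carrying MMTV-PyMT, a transgene in which a mammary tumor virus promoter drives the polyoma middle T oncogene in mammary epithelium. Organoids, which are clusters of primary tumor cells grown in matrigel with FGF2, received Malat1 ASO1, Malat1 ASO2 or a control oligonucleotide (scASO), each at 500 nM for 6 days, or were mock-treated (Mock), with 4 libraries in each of these groups. Tumors came from mice injected subcutaneously with 125 mg/kg/week of Malat1 ASO1 (3 libraries), Malat1 ASO2 (4 libraries) or scASO (3 libraries) for several weeks. No tumor group without an oligonucleotide was analysed here, and the labels give neither the animals' ages nor whether replicates are separate mice or separate cultures, so the p-values cover only the variation among these samples, and that variation could be technical.

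Type I interferons bind the receptor Ifnar1/Ifnar2, whose kinases Jak1 and Tyk2 phosphorylate signal transducers such as Stat2. A complex that holds Stat2 and Irf9 binds the interferon-stimulated response element (ISRE) in the promoters of target genes, whereas the response to interferon gamma runs through the gamma-activated site (GAS). Nucleic acids sensed in a cell can start the same program, and in tumors it is carried by epithelial cells and by infiltrating leukocytes alike.

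Promoter sequence describes the members apart from their expression. RefSeq promoter windows (GRCm38.p6, from 250 bases before to 50 after the start) matched 29 of the 39 members by symbol. The ISRE letters searched were GAAA, any 2 bases and GAAA again, on either strand (matches may overlap), and they were in a window of 16 of these 29 members (55.2%), against 3.99% of the 27025 genes with a window. The GAS letters TTCNNNGAA, which read the same on both strands, were in 8 of 29 members (27.6%), against 9.55% of genes. A match describes the letters in the window and is not a measured binding site. Excerpts from 5 members make the letters visible: 4 with the ISRE letters and Irf1, whose window holds the GAS letters and no ISRE letters. Each reads 5′ to 3′ on the gene's strand, with every ISRE match in capitals and, for Irf1, the GAS match. The Igtp excerpt also holds the GAS letters, just upstream of its ISRE letters and left in lower case. Isg15 encodes a ubiquitin-like protein and its excerpt, chr4:156200840-156200931 on the minus strand, has 3 overlapping ISRE matches that begin 78, 72 and 66 bases before the start. Ifit3 encodes a protein that acts with Ifit1 on foreign RNA and its excerpt, chr19:34583338-34583451 on the plus strand, has 2 matches. Stat2 lies at chr10:128270248-128270320 (plus), Igtp, an immunity-related GTPase, at chr11:58199487-58199566 (plus), and Irf1 at chr11:53769889-53769967 (plus).
Isg15: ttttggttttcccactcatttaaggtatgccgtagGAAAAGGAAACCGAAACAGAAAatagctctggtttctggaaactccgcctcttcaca
Ifit3: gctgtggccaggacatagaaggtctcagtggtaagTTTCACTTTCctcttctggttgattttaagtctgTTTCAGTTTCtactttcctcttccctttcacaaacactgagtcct
Stat2: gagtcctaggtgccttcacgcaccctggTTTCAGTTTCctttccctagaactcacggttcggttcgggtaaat
Igtp: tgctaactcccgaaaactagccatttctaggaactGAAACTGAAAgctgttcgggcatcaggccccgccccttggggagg
Irf1: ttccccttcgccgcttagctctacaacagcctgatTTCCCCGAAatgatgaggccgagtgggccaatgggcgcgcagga

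Reads assigned to genes numbered 23973533 to 65146030 per organoid library and 9939520 to 51363552 per tumor library. Levels are read counts relative to library size (CPM) scaled by TMM factors over all 26 libraries. Malat1, the target, had 186, 114, 87.0 and 124 CPM in ASO1 organoids and 1485, 219, 95.6 and 307 CPM in ASO2 organoids, against 836, 119, 781 and 1191 CPM in scASO organoids and 769, 1578, 713 and 1321 CPM in Mock organoids. The library labelled ASO2 organoid 1 thus had Malat1 in the range of the Mock organoids, and the library labelled scASO organoid 2 in the range of the ASO organoids, so both go against their labels and results are given with and without them. Across all genes tested, the deviations from the group mean of the library labelled ASO2 organoid 1 correlated more with those of Mock organoid 2 (r = 0.80) than of Mock organoid 1 (r = 0.47), and those of the library labelled scASO organoid 2 more with Mock organoid 1 (r = 0.72) than with Mock organoid 2 (r = 0.54). Whether these libraries were exchanged was not tested. In tumors Malat1 had 824, 781 and 401 CPM with ASO1 and 594, 913, 639 and 381 CPM with ASO2, against 1569, 1914 and 847 CPM with scASO. The mammary epithelial markers summed to 5654 to 12402 CPM in organoids and 2407 to 4370 CPM in tumors, so mammary epithelial RNA was present in every library.

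Per kilobase of exon (GENCODE annotation of GRCm38, used for length only), the most abundant members were the same pair in both systems. Bst2, a surface protein that tethers budding viruses, averaged 75.4 CPM per kb in organoids and 213 CPM per kb in tumors. Isg15 averaged 33.9 CPM per kb in organoids and 170.0 CPM per kb in tumors. The lowest levels per kb were those of the GTPase Mx2 in organoids (0.950 CPM per kb) and of the oligoadenylate synthetase Oas3 in tumors (3.08 CPM per kb). In CPM the leading members were Dtx3l, Irf1 and Parp9 in organoids and Irf7, Oasl2 and Oas2 in tumors. Dtx3l, a ubiquitin ligase that works with Parp9, had 106, 131, 84.0 and 40.1 CPM in ASO1 organoids, 109.6, 115, 94.2 and 45.5 CPM in ASO2 organoids, 99.6, 103, 107 and 55.9 CPM in scASO organoids and 99.0, 138, 79.1 and 39.8 CPM in Mock organoids. Libraries numbered 4 were the lowest in every arm.

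The members varied far more between libraries of one group than most genes did. The median within-group SD of log2 CPM was 1.12 for members and 0.42 for all genes tested in organoids, and 91.1% of genes had a lower SD than the median member. In tumors it was 0.90 for members and 0.39 for all genes, and 86.9% of genes lay below the median member. The spread was largely shared: the median Pearson r between pairs of members was 0.85 across the 16 organoid libraries and 0.85 across the 10 tumor libraries, values that share each library's depth and makeup and are given as a description. Oasl2 followed the mean of the other members most closely in tumors (r = 0.99) and Irf7 in organoids (r = 0.99). Isg20, an exonuclease of single-stranded RNA, followed them least in organoids (r = -0.07), and Irf1 least in tumors (r = 0.59). Isg20 had 13.5, 75.1, 25.2 and 64.3 CPM in ASO1 organoids, 68.3, 90.4, 21.2 and 68.8 CPM in ASO2 organoids, 13.6, 14.9, 15.7 and 56.5 CPM in scASO organoids and 8.60, 48.2, 15.4 and 93.5 CPM in Mock organoids. In every arm it had more CPM in number 4 than in numbers 1 and 3, whereas most other members were low in number 4.

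**Figure D1:**
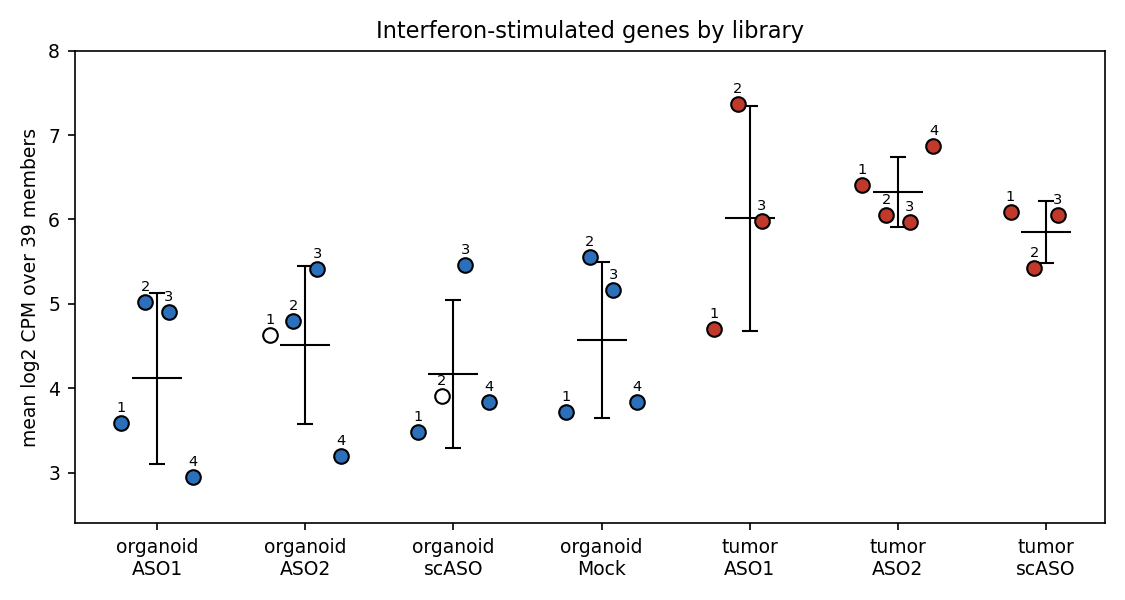
Mean log2 CPM over the 39 members (vertical axis) in every library, by group, with the replicate number above each point; bars give the group mean and SD, and open circles are the libraries labelled ASO2 organoid 1 and scASO organoid 2. ASO1 tumors 1 and 2 mark the lowest and the highest tumor values (4.70 and 7.37), and in each organoid group the value depends on the replicate number.

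**Figure D2:**
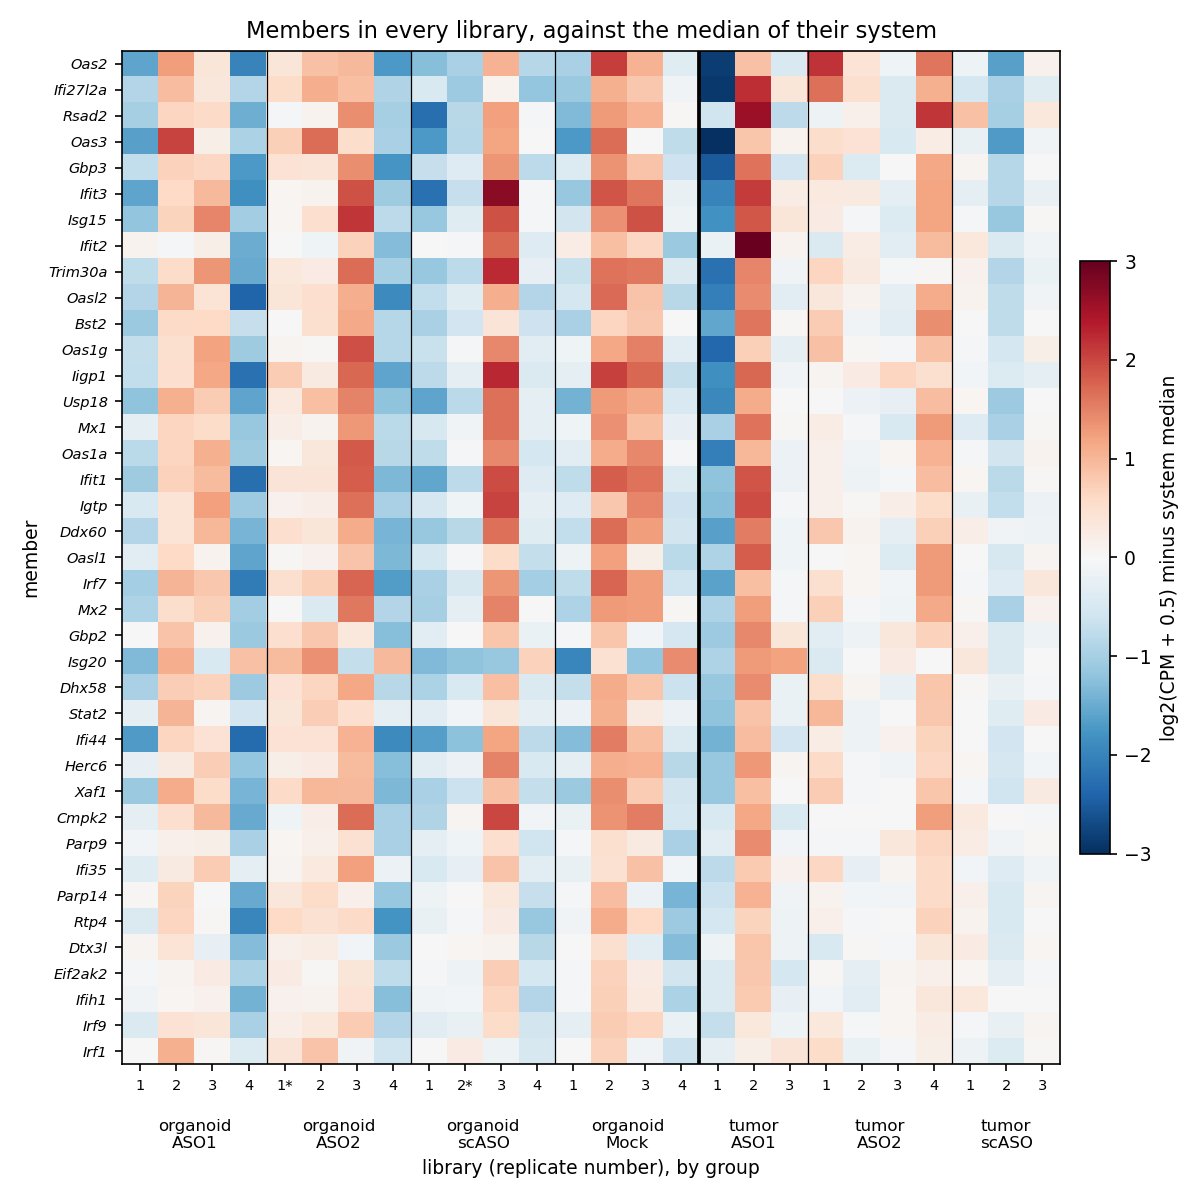
Each row is a member and each column a library; color is log2(CPM + 0.5) minus the member's median over the organoid or the tumor libraries, asterisks mark the libraries labelled ASO2 organoid 1 and scASO organoid 2, and rows are ordered by their variance in tumors. ASO1 tumor 2 is high and ASO1 tumor 1 low for nearly the whole list, organoid numbers 2 and 3 are high in most arms, and Isg20 follows a course of its own.

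In tumors, Malat1 ASOs were compared with scASO over 7 against 3 libraries. No member passed at an adjusted p of 0.05 (edgeR's quasi-likelihood test, adjusted over 17354 genes by Benjamini-Hochberg), and none had an unadjusted p under 0.05. Of all genes, 0% passed and 5.86% had an unadjusted p under 0.05. Malat1, the target, did not pass in this fit either (log2 fold change -1.14 ± 0.32, SE, adjusted p 0.83, edgeR). DESeq2 gave an adjusted p to 38 of 39 members and called none, where it called 0.118% of the 16153 genes with an adjusted p. It gave 1 member an unadjusted p under 0.05, beside 1417 genes (8.77% relative to those 16153 genes). The 1417 genes may include some without an adjusted p, so 8.77% may overstate the share of all genes. The fitted log2 fold changes were nevertheless above 0 for 38 of 39 members, with a median of 0.48, beside 56.9% of all genes above 0 and a median of 0.05. For 0 of 39 members were all ASO tumors above all scASO tumors, and for 0 of 39 were they all below; 0.882% and 1.43% of all genes showed these patterns.

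The regulators come first. Irf7, the transcription factor that amplifies type I interferon production, had 83.5, 472 and 244 CPM in ASO1 tumors and 354, 264, 242 and 619 CPM in ASO2 tumors, against 246, 195 and 320 CPM in scASO tumors (log2 fold change of both ASOs over scASO 0.32 ± 0.46, SE; adjusted p 0.93, edgeR). Stat2 had 57.3, 242 and 116 CPM with ASO1 and 265, 118, 131 and 233 CPM with ASO2, against 133, 103 and 157 CPM with scASO. The low value of both genes was in ASO1 tumor 1, and the groups overlapped. Irf9, the DNA-binding partner of Stat2, had 94.8, 193 and 139 CPM with ASO1 and 194, 149.9, 161 and 181 CPM with ASO2, against 149, 133 and 163 CPM with scASO. Irf1, a factor activated by interferon gamma, had 70.7, 97.6 and 113 CPM with ASO1 and 126, 75.4, 84.3 and 97.5 CPM with ASO2, against 78.2, 64.6 and 88.6 CPM with scASO. These factors varied to different degrees: the highest tumor was 1.95 times the lowest for Irf1, 2.05 times for Irf9, 4.63 times for Stat2 and 7.41 times for Irf7.

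Among effectors, the smallest p-values belonged to Ifi27l2a, Igtp, Ifit3 and Mx1, none of which passed the test. Ifi27l2a, a small mitochondrial membrane protein gene, had 1.05, 53.2 and 14.3 CPM in ASO1 tumors and 35.7, 15.6, 8.09 and 23.9 CPM in ASO2 tumors, against 7.54, 5.35 and 8.55 CPM in scASO tumors. Its log2 fold change was 1.63 ± 0.86 (SE; adjusted p 0.83, edgeR), with 1 ASO1 tumor below every scASO tumor and 1 ASO2 tumor inside their range. Igtp had 34.3, 323 and 81.6 CPM with ASO1 and 93.2, 85.1, 95.8 and 123 CPM with ASO2, against 70.8, 49.4 and 73.7 CPM with scASO (0.91 ± 0.53). All ASO tumors but ASO1 tumor 1 were above the scASO tumors for this gene. Ifit3 had 28.3, 489 and 134 CPM with ASO1 and 140.5, 137, 92.7 and 260 CPM with ASO2, against 94.4, 62.7 and 97.5 CPM with scASO (1.13 ± 0.66). Mx1, an antiviral GTPase that carries a deletion in most inbred strains including C57BL/6, had 15.1, 94.8 and 31.0 CPM with ASO1 and 35.5, 29.4, 21.7 and 74.4 CPM with ASO2, against 22.8, 15.1 and 31.0 CPM with scASO (0.93 ± 0.55). In each of these 4 genes, ASO1 tumor 2 was the highest library of all tumors and ASO1 tumor 1 lay below or level with the lowest scASO tumor.

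Oasl2 and Oas2, next to Irf7 in CPM, differed in where they peaked. Oasl2, an oligoadenylate synthetase-like protein, had 43.6, 491 and 146 CPM in ASO1 tumors and 233, 197, 151 and 393 CPM in ASO2 tumors, against 196, 107 and 169 CPM in scASO tumors. Oas2, a synthetase of the 2-5A messenger that activates RNase L, had 18.7, 256 and 101 CPM with ASO1 and 618, 184, 126 and 419 CPM with ASO2, against 125, 44.0 and 151 CPM with scASO. The highest Oas2 value was thus in ASO2 tumor 1, the library with the most skeletal muscle (1283 CPM summed over 4 markers, against 1.47 to 46.9 CPM in the other tumors), fibroblast and adipocyte marker RNA; whether these cells carry the Oas2 reads was not tested. The only member with a fold change below 0 was Ifih1, the cytosolic sensor MDA5, at -0.02 ± 0.26 (SE).

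By role, no member of any group passed the test in either direction in tumors. The 6 GTPases (Mx1, Mx2, Gbp2, Gbp3, Igtp, Iigp1) had a median log2 fold change of 0.71. The 11 genes for RNA-binding and RNA-degrading proteins (Ifit and Oas families, Isg20, Eif2ak2) had 0.66, with Ifit3 at 1.13 and Ifit2 at 1.01. The 7 genes of ubiquitin-like modification and its regulators (Isg15, Usp18, Herc6, Parp9, Parp14, Dtx3l, Trim30a) had 0.48, with Isg15 at 0.89. The 8 membrane, nucleotide and other effectors had 0.42, the 3 sensors and helicases (Ifih1, Dhx58, Ddx60) 0.46 and the 4 transcription factors 0.31.

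Taken by ASO, ASO1 tumors against scASO tumors gave a median of 0.51 (37 of 39 members above 0) and ASO2 tumors against scASO tumors 0.50 (37 of 39); these comparisons share the scASO tumors. No member passed the test in either, and 0.00576% of all genes passed for ASO1 and 0% for ASO2. At an unadjusted p under 0.05 stood 1 member and 8.45% of all genes for ASO1, and 0 members and 5.14% of all genes for ASO2. Ifit2 had an unadjusted p of 0.0355 for ASO1 (1.77 ± 0.73, SE; adjusted p 0.58, edgeR), with 26.1, 236 and 32.4 CPM in ASO1 tumors and 37.1, 22.0 and 27.7 CPM in scASO tumors. That contrast was thus 1 library far above all others. For ASO2 the smallest p was that of Oas2 (1.68 ± 0.81; adjusted p 0.89). Between the ASOs, ASO1 minus ASO2 had a median of 0.06 with 21 of 39 members above 0, and no member passed, where 0% of all genes did. Ifit2 alone had an unadjusted p under 0.05 there (1.51 ± 0.67), as did 10% of all genes.

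Single tumors carried these differences. ASO1 tumor 2 was the highest of the 10 tumors for 30 of 39 members and ASO1 tumor 1 the lowest for 32, so the extremes of the tumors lay within one treatment group. ASO1 tumor 2 exceeded ASO1 tumor 1 by a median of 6.28-fold, from 1.38-fold to 48.0-fold, and exceeded the median of the other 9 tumors by 2.48-fold. The mean log2 CPM over the members was 6.02 ± 1.34 in ASO1 tumors (SD, n = 3) and 6.33 ± 0.41 in ASO2 tumors (n = 4), against 5.85 ± 0.37 in scASO tumors (n = 3). Without ASO1 tumor 2 the median fold change of both ASOs over scASO was 0.04, with 21 of 39 members above 0. Without ASO1 tumor 1 it was 0.71, with all 39 above 0. For ASO1 alone the median was -0.36 with 5 members above 0 without ASO1 tumor 2, and 0.95 with 39 above 0 without ASO1 tumor 1. ASO2 against scASO depended less on 1 library, with medians of 0.26 (without ASO2 tumor 4) to 0.61 over 10 such fits and 33 to 39 members above 0. ASO1 minus ASO2 went to -0.89 with 1 member above 0 when ASO1 tumor 2 was left out. No member passed the test in any of these fits.

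**Figure D3:**
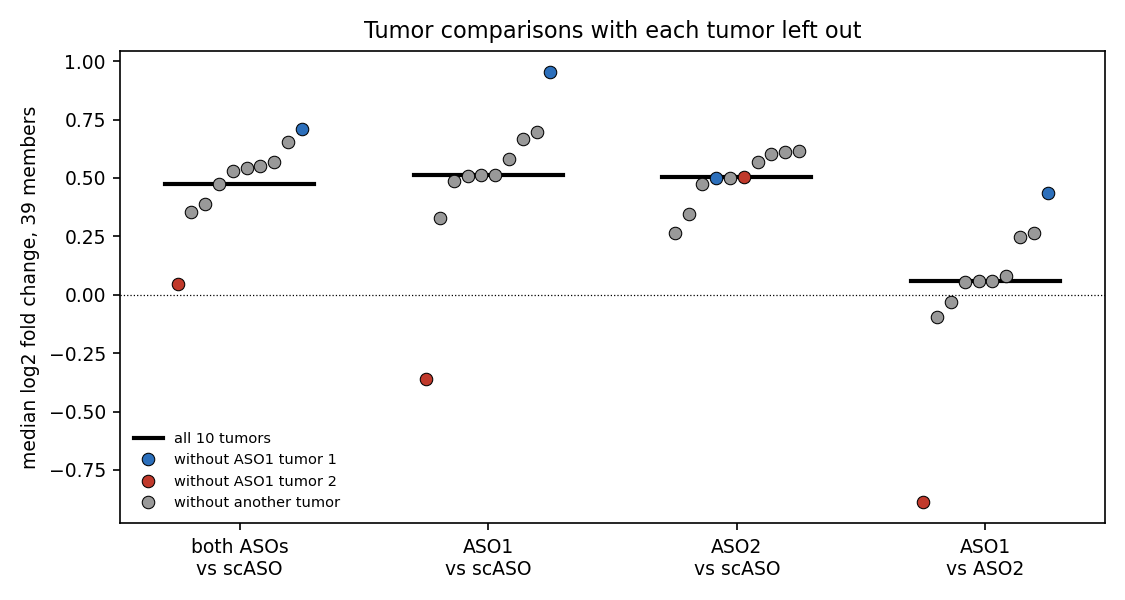
Median log2 fold change of the 39 members (vertical axis) in the 4 tumor comparisons with all 10 tumors (black bars) and with each tumor left out (points, sorted by value). Leaving out ASO1 tumor 2 brings the ASO1 median to -0.36 and the ASO1 minus ASO2 median to -0.89, while ASO2 against scASO stays between 0.26 and 0.61.

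ASO1 tumor 2, highest for the members, had the lowest macrophage marker sum of all tumors (341 CPM over 8 genes, against 346 to 704 CPM in the others), the lowest T and NK cell sum (4.99 CPM over 7 genes, against 7.84 to 21.0 CPM) and the lowest dendritic cell sum (18.3 CPM over 5 genes, against 19.8 to 64.4 CPM). ASO1 tumor 1, lowest for the members, had a macrophage sum of 346 CPM. Stat3, a signal transducer of cytokine receptors, was lowest in ASO1 tumor 2 (93.3 CPM, against 309 to 496 CPM in the other tumors). Adipocyte markers (4 genes) summed to 3.27 to 16.1 CPM in ASO1 tumors and 9.10 to 742 CPM in ASO2 tumors, against 4.21 to 6.34 CPM in scASO tumors; their part in the members' values was not tested. In bulk tissue, fewer cells of a type and less RNA per cell cannot be told apart.

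In organoids, no member passed the test in any of the 7 comparisons when replicate numbers were not used, and 0% of all genes passed in each. Malat1 itself did not pass in any of them, with a log2 fold change of -2.10 ± 0.60 (SE) for both ASOs against Mock. No member had an unadjusted p under 0.05 in any of the 7. Of all genes, 2.73%, 1.93%, 1.82% and 1.59% had one against Mock for both ASOs, ASO1, ASO2 and scASO, and 1.06%, 0.257% and 1.68% against scASO for both ASOs, ASO1 and ASO2. DESeq2 called no member in any of them. Of all genes, it called 8 of 20285 for both ASOs against Mock, 7 of 26413 for ASO1 against Mock and 0 in each of the others. It gave 1 member an unadjusted p under 0.05, in ASO2 against scASO, where 496 genes had one. Against Mock, the median log2 fold change of the members was -0.31 for both ASOs together (5 of 39 above 0, beside 46.4% of all genes and a median of -0.02), -0.46 for ASO1 (4 above 0), -0.10 for ASO2 (13 above 0) and -0.38 for scASO (5 above 0). These 4 comparisons share the Mock libraries. Against scASO the median was 0.11 for both ASOs (24 above 0), -0.08 for ASO1 (14) and 0.29 for ASO2 (28), which share the scASO libraries. For all 7, the spread within a group exceeded these differences: the mean log2 CPM over the members was 4.12 ± 1.01 in ASO1, 4.51 ± 0.94 in ASO2, 4.17 ± 0.88 in scASO and 4.57 ± 0.93 in Mock organoids (SD, n = 4 each).

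Most of that spread lay between replicate numbers. Irf7 had 24.2, 102 and 88.6 CPM in ASO1 organoids 1, 2 and 3 and 11.2 CPM in ASO1 organoid 4. It had 69.7, 81.8, 169 and 15.4 CPM in ASO2 organoids, 25.4, 35.8, 125 and 24.6 CPM in scASO organoids and 29.3, 169.9, 120.2 and 33.0 CPM in Mock organoids. Numbers 2 and 3 were high and numbers 1 and 4 low in every arm, except for the library labelled ASO2 organoid 1, which was near the high ones, and the library labelled scASO organoid 2, which was near the low ones. Without those libraries, the mean over the members was 3.49 to 3.72 in number 1, 4.79 to 5.55 in number 2, 4.90 to 5.46 in number 3 and 2.95 to 3.84 in number 4. With them the range of number 1 reached 4.63 and that of number 2 went down to 3.91. Replicate number accounted for 90.2% of the within-arm variance of the median member without both libraries and for 79.2% with them, against 86.2% and 80.0% for the median gene tested, so the members are no exception in this respect.

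Other regulators and abundant members followed the numbers to different degrees. Stat2, the signal transducer, had 42.9, 106, 55.4 and 34.5 CPM in ASO1 organoids, 67.0, 86.6, 73.4 and 43.3 CPM in ASO2 organoids, 41.3, 48.7, 67.4 and 43.3 CPM in scASO organoids and 45.6, 109, 62.5 and 45.7 CPM in Mock organoids. Irf1, the interferon gamma-responsive factor, had 75.9, 157, 76.9 and 55.9 CPM in ASO1 organoids, 97.9, 136, 69.2 and 49.5 CPM in ASO2 organoids, 76.1, 88.6, 67.2 and 54.0 CPM in scASO organoids and 73.9, 120.3, 69.4 and 47.7 CPM in Mock organoids. Stat2 was highest in Mock organoid 2 and lowest in ASO1 organoid 4, Irf1 was highest in ASO1 organoid 2 and lowest in Mock organoid 4, and the arms overlapped for both. Parp9, a macrodomain protein that pairs with Dtx3l, had 78.1, 92.4, 92.7 and 41.6 CPM in ASO1 organoids, 85.4, 92.3, 114 and 42.1 CPM in ASO2 organoids, 68.8, 75.8, 117 and 54.6 CPM in scASO organoids and 79.9, 116, 99.8 and 41.9 CPM in Mock organoids. Ifit2, an RNA-binding effector, had 19.2, 17.1, 20.2 and 6.01 CPM in ASO1 organoids, 17.6, 16.2, 29.1 and 6.91 CPM in ASO2 organoids, 17.96, 17.3, 60.2 and 13.5 CPM in scASO organoids and 21.0, 33.7, 27.8 and 7.99 CPM in Mock organoids. The highest Ifit2 value was in scASO organoid 3 and the lowest in ASO1 organoid 4.

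**Figure D4:**
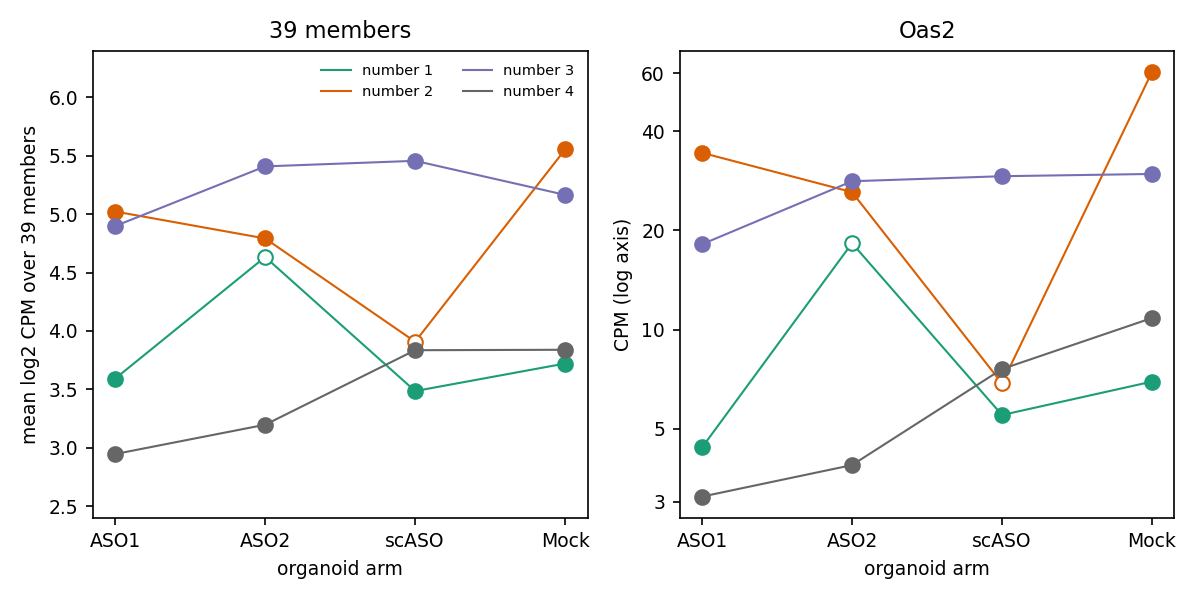
Organoid libraries joined by replicate number across the 4 arms: the mean log2 CPM over the 39 members on the left and Oas2 in CPM on a log axis on the right; open circles are the libraries labelled ASO2 organoid 1 and scASO organoid 2. Numbers 2 and 3 lie above numbers 1 and 4 in ASO1 and Mock, and Oas2 is lower in ASO1 than in Mock organoids of the same number, as at number 4 (3.11 against 10.8 CPM).

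With the replicate number as a block and without both libraries that go against their labels, 14 organoid libraries remained and 8 of 39 members were lower in ASO than in Mock organoids (edgeR's quasi-likelihood test, adjusted p under 0.05), with none higher. Of all 17325 genes, 4.35% were called lower and 5.52% higher in the same fit. The members' median was -0.44, with 4 of 39 above 0, beside a median of -0.01 over all genes in the same fit. With the block and all 16 libraries no member was called, although 4.31% of all genes were. Without the block and without both libraries no member was called, where 0.00577% of all genes were. The result therefore needs both choices.

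The clearest of the 8 was Oas2. It had 4.38, 34.4, 18.2 and 3.11 CPM in ASO1 organoids and 26.2, 28.2 and 3.87 CPM in ASO2 organoids 2, 3 and 4 (18.3 CPM in the library labelled ASO2 organoid 1), against 6.95, 60.6, 29.7 and 10.8 CPM in Mock organoids. Every ASO library used was below the Mock library of its number, although the groups overlapped. Its log2 fold change was -0.93 ± 0.18 (SE; adjusted p 0.0080). Iigp1, a GTPase acting on parasite vacuoles, had 10.02, 24.1, 38.8 and 3.21 CPM in ASO1 organoids and 20.7, 57.6 and 5.39 CPM in ASO2 organoids 2, 3 and 4, against 13.97, 72.6, 57.0 and 10.2 CPM in Mock organoids (-0.99 ± 0.24, adjusted p 0.023). Here ASO2 organoid 3 was level with Mock organoid 3, and all other ASO libraries used lay below Mock. Ddx60, a helicase that promotes RNA sensing, had 5.67, 14.4, 22.1 and 3.802 CPM with ASO1 and 14.1, 23.9 and 3.84 CPM with ASO2, against 6.28, 35.7, 26.7 and 7.24 CPM with Mock (-0.75 ± 0.19, adjusted p 0.023). Rtp4, an interferon-induced chaperone of receptor transport, had 39.1, 83.6, 54.3 and 13.2 CPM with ASO1 and 72.7, 78.8 and 14.9 CPM with ASO2, against 49.4, 116, 80.6 and 24.8 CPM with Mock (-0.51 ± 0.13, adjusted p 0.024). For both genes each ASO library used (ASO2 organoids 2, 3 and 4) was below the Mock library of its number. The library labelled ASO2 organoid 1, left out of this fit, was above Mock organoid 1. It had 15.5 CPM of Ddx60, 79.9 CPM of Rtp4 and 29.3 CPM of Iigp1.

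The other 4 called members were Ifi44 (-0.87 ± 0.22), Isg15 (-0.58 ± 0.16), Irf9 (-0.36 ± 0.11) and Oasl2 (-0.71 ± 0.21, adjusted p 0.049). Irf9 had 43.4, 80.0, 76.3 and 30.0 CPM in ASO1 organoids and 73.3, 100.4 and 31.8 CPM in ASO2 organoids 2, 3 and 4, against 47.9, 101.02, 92.1 and 51.5 CPM in Mock organoids. The other regulators did not pass: Irf7 had -0.61 ± 0.21, Stat2 -0.13 and Irf1 0.10. By role, 2 of 11 genes for RNA-binding and RNA-degrading proteins (Oas2, Oasl2), 2 of 8 other effectors (Rtp4, Ifi44), 1 of 6 GTPases (Iigp1), 1 of 3 sensors and helicases (Ddx60), 1 of 7 genes of ubiquitin-like modification (Isg15) and 1 of 4 transcription factors (Irf9) were lower. Ifit3 and Ifit1 had larger changes than most of these (-0.98 ± 0.31 and -0.85 ± 0.26) and larger errors, and missed the threshold (adjusted p 0.067 and 0.058).

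**Figure D5:**
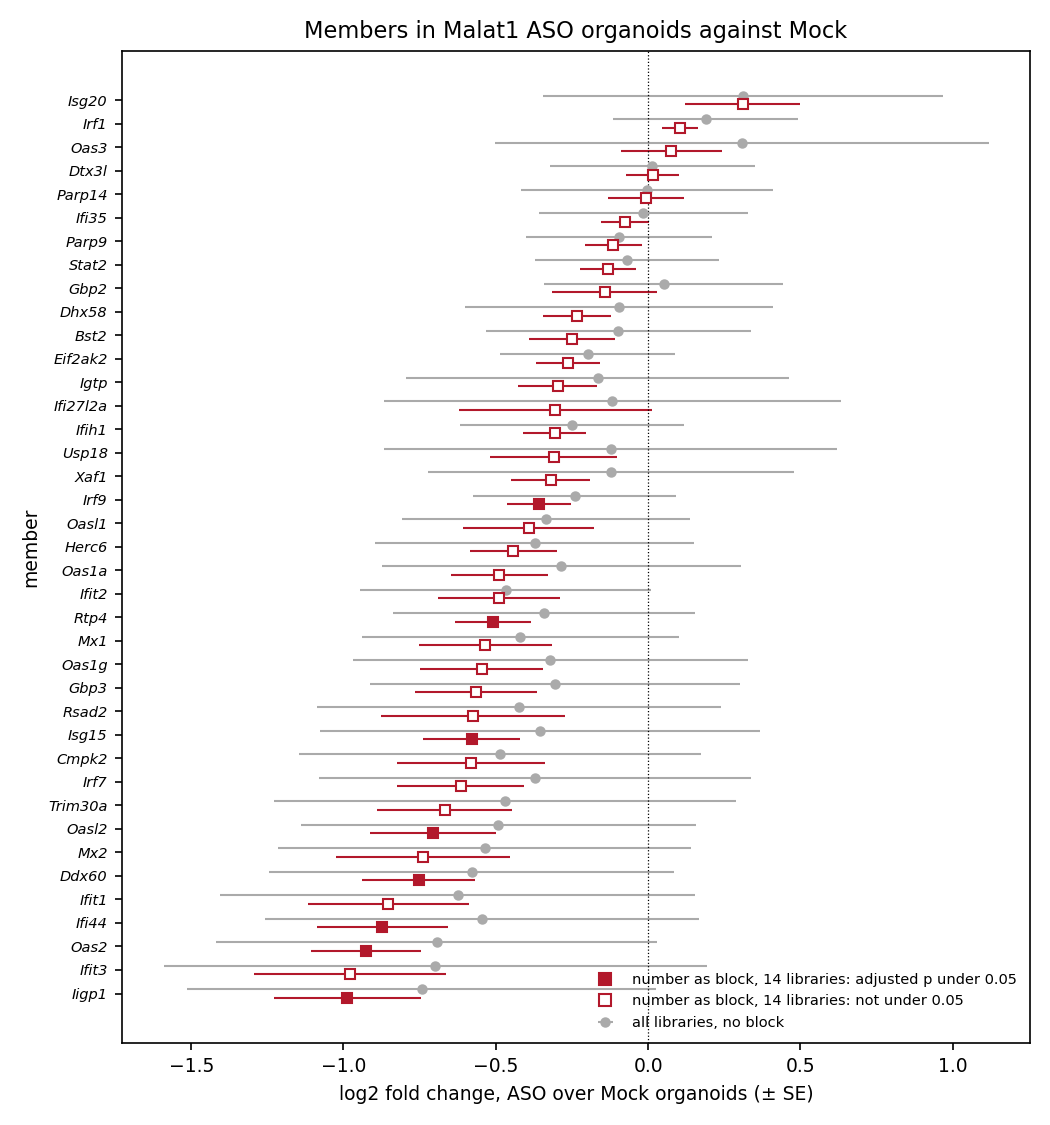
Log2 fold change with SE (horizontal axis) of each member in ASO over Mock organoids: grey circles use all libraries without the block, red squares use the replicate number as a block and 14 libraries, filled where the adjusted p was under 0.05. The 8 filled members, from Irf9 (-0.36) to Iigp1 (-0.99), lie below 0, and the errors are much smaller in that fit.

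Taken by ASO in that fit, ASO1 against Mock had 5 members lower (Oas2, Rtp4, Isg15, Iigp1 and Ifi44), where 2.3% of all genes were lower, and ASO2 against Mock had none, where 3.42% of all genes were called in either direction. Oas2 had -0.98 ± 0.21 for ASO1 and -0.87 ± 0.23 for ASO2 (adjusted p 0.014 and 0.056), and both share the Mock libraries; the difference between the ASOs was not tested. By replicate number, 26 of 39 members were lower in ASO1 than in Mock in all 4 numbers, as were 14.7% of all genes, with medians over the members of -0.12, -0.67, -0.29 and -0.90 log2 units in numbers 1 to 4. Irf1 alone was higher in all 4 numbers, as were 13.9% of all genes. ASO2 was lower than Mock in numbers 2 and 4 (medians -0.81 and -0.70, 36 of 39 members lower in each) and not in number 3 (0.22, with 5 of 39 lower). Oas2, Rtp4, Ddx60 and Herc6 were lower with ASO2 in all 3 usable numbers, as were 19.6% of all genes.

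For the control oligonucleotide against Mock in that fit, 0 members were called, where 1.78% of all genes were, the median was -0.05 and 18 of 39 members were above 0, or 10 to 27 with 1 further library left out. With the block and all 16 libraries, scASO against Mock had a median of -0.41 with 5 of 39 above 0, beside -0.36 and 5 of 39 for both ASOs against Mock; these share the Mock libraries. In the fit with the block and 14 libraries, both ASOs against scASO gave a median of -0.35 with 5 of 39 above 0. There 0 members passed, where 0.0231% of all genes did. At an unadjusted p under 0.05, 21 members were lower, against 4.32% of all genes. Ifit2 was the first of these (-0.93 ± 0.22, SE; unadjusted p 0.0011, adjusted p 0.40). Only numbers 3 and 4 hold both an ASO2 and a scASO library in that fit, and only numbers 1, 3 and 4 an ASO1 and a scASO library. With the block and all 16 libraries, the median of both ASOs against scASO was 0.02, with 21 of 39 above 0. Without the block and without both libraries it was -0.02, with 18 of 39 above 0.

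Single libraries carried the organoid calls too. With each of the 14 libraries left out in turn, the number of members called in ASO against Mock organoids ran from 1 to 19, while the median stayed between -0.56 and -0.32. Without ASO2 organoid 2, ASO2 organoid 4 or Mock organoid 2 a single member was called; without ASO2 organoid 3 it was 19 and without Mock organoid 3 it was 17. Leaving out other libraries gave 15 (ASO1 organoid 1), 3 (ASO1 organoid 2, or Mock organoid 4, where 1 of the 3 was higher) and 5 (ASO1 organoid 3, ASO1 organoid 4 or Mock organoid 1). Oas2 was called in all 14 fits, with log2 fold changes of -1.11 to -0.75. Iigp1, Rtp4 and Ifi44 were called in 10, Ddx60 in 9, Isg15 in 6, Oasl2 in 4 and Irf9 in 3. For ASO1 against Mock the count ran from 0 to 15, and Oas2 was called in 12 of 14 fits. The share of all genes called in each of these fits is not reported here, so the swing may not be particular to the members. Without the block, the median of both ASOs against Mock was 0.02 once Mock organoid 2 was left out, with 23 of 39 above 0.

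Macrophage markers changed in both directions in the fit that made these calls. Of 8 such markers, 4 were lower in ASO than in Mock organoids (Ptprc -1.42 ± 0.17, Mrc1 -1.22 ± 0.26, Fcgr1 and Adgre1) 2 were higher (Cd68 0.94 ± 0.24 and Cd14 0.38 ± 0.08), and Csf1r (-0.47 ± 0.26) and Lyz2 (-0.26 ± 0.18) did not pass. Ptprc, the pan-leukocyte antigen CD45, had 0.493, 0.569, 2.399 and 1.37 CPM in ASO1 organoids and 0.222, 1.06 and 0.802 CPM in ASO2 organoids 2, 3 and 4, against 1.15, 0.640, 3.88 and 3.39 CPM in Mock organoids. It was high in numbers 3 and 4, whereas the members were high in numbers 2 and 3. The summed macrophage markers were 229.6 to 562 CPM in ASO1, 213 to 553 CPM in ASO2, 256 to 480 CPM in scASO and 218 to 383 CPM in Mock organoids, and the sum was higher in ASO1 than in Mock in all 4 numbers. In every arm the sum was lowest in number 3, where Ptprc was highest among the libraries given above. The sum, which includes Ptprc, thus went apart from Ptprc. Whether either follows macrophage number was not tested, and neither is taken as a measure of it here. T and NK cell markers summed to at most 1.35 CPM in any organoid library. The part of these cells in the members' change was not tested. The myoepithelial keratins Krt14 (0.83 ± 0.11) and Krt5 (0.71 ± 0.11) were higher in the ASO organoids in the same fit. The other mammary epithelial markers listed, Krt8 (0.32), Krt18 (0.18), Cdh1 (0.12) and Epcam (0.04), did not pass. Also higher were 1 of 5 fibroblast markers (Dcn 1.00 ± 0.28) and Fabp4 (1.45 ± 0.35), the 1 adipocyte marker of 4 that passed the filter. In number 4 the adipocyte markers summed to 71.2 CPM in ASO1, 41.9 CPM in ASO2 and 62.2 CPM in scASO organoids, against 12.97 CPM in Mock organoids; the part of these cells was not tested either.

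Control-treated organoids were set against control-treated tumors to describe the members in libraries labelled as without Malat1 targeting. The library labelled scASO organoid 2, which was low in Malat1 (119 CPM), was included. The systems also differ in culture, cell makeup and exposure time, which cannot be told apart here. Of 39 members, 9 were lower in scASO organoids than in scASO tumors (edgeR, adjusted p under 0.05) and none higher, where 12.1% of all genes were lower and 11.4% higher. The median was -1.39 and 2 of 39 were above 0. Irf9 had 46.5, 50.5, 87.5 and 40.1 CPM in scASO organoids, against 149, 133 and 163 CPM in scASO tumors, with no overlap (-1.41 ± 0.37, SE; adjusted p 0.0087). Stat2 had 41.3, 48.7, 67.4 and 43.3 CPM in organoids, against 133, 103 and 157 CPM in tumors (-1.38 ± 0.43). Oas2 had 5.50, 6.86, 29.2 and 7.58 CPM in organoids, against 125, 44.0 and 151 CPM in tumors (-3.12 ± 0.95), and Ifi27l2a had 0.580, 0.194, 1.09 and 0.166 CPM, against 7.54, 5.35 and 8.55 CPM (-3.83 ± 1.04). The ranges of these 4 genes did not overlap, as held for 15 of 39 members in this direction and for 20.9% of all genes.

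The other 5 called members were Oas1g (-2.53 ± 0.77), Mx2 (-2.47 ± 0.78), Cmpk2 (-2.30 ± 0.74), Irf7 (-2.27 ± 0.81) and Ifi35 (-1.16 ± 0.40). Isg20 went the other way, with 13.6, 14.9, 15.7 and 56.5 CPM in scASO organoids, against 12.7, 7.21 and 9.86 CPM in scASO tumors, without overlap but without passing the test (1.34 ± 0.74). It was the only member above in every library, a pattern of 19.4% of all genes. Over 26 fits that each left out 1 library, Irf9 and Ifi27l2a were called in all 26, Irf7 in 14 and the other 6 in 20 to 22. The count of called members was 24 without scASO organoid 3, the one scASO organoid with high levels, and 2 without scASO organoid 1, the library labelled scASO organoid 2, scASO organoid 4 or scASO tumor 3. It was 4 without scASO tumor 1 and 6 without scASO tumor 2. The share of all genes called in each of these fits is not reported here either. DESeq2 called 15 members lower, where it called 13.3% of genes lower, and edgeR without both libraries against their labels called 2, where it called 8.5%. Macrophage markers were lower in scASO organoids for 4 of 8 genes (Ptprc -3.68 ± 0.70), as were T and NK cell markers for 6 of 7; the part of these cells in the members' lower level was not tested.

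The difference in the response to the ASOs against scASO, tumor minus organoid, passed the test for 0 of 39 members, where 0% of all genes passed and 0 members and 4.45% of all genes had an unadjusted p under 0.05; the median difference was 0.31 log2 units and 32 of 39 were above 0. Ifit2 had the smallest p (1.73 ± 0.84, SE; unadjusted p 0.0502, adjusted p 1.00, edgeR). The median was -0.07 without ASO1 tumor 2, -0.24 once the third scASO organoid was dropped and 0.55 without ASO1 organoid 2. Without both libraries against their Malat1 label it was 0.46, with 35 of 39 above 0. In that fit 0 members and 0 of 18632 genes passed, and 1 member and 617 genes had an unadjusted p under 0.05 (edgeR).

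Few reads fell on the interferon genes that were counted. Of 11 ligand genes listed, 8 were matched (Ifnb1, Ifna2, Ifna4, Ifnk, Ifne, Ifng, Ifnl2 and Ifnl3), while Ifna1, Ifna5 and Ifnz were not matched and further Ifna genes were not examined. Over these 8, 46 reads were counted in the 16 organoid libraries and 73 in the 10 tumor libraries, with at most 13 in a library, and none passed the filter in any fit. Ifnb1, interferon beta, had 12 reads in all organoids and 20 in all tumors. Among 9 receptor and Janus kinase genes, none passed the test between ASO and scASO tumors (median -0.01). None passed between ASO and Mock organoids without the block, or with the block and 14 libraries (median -0.04 in the latter fit). Jak1, the most abundant, had 189 to 308 CPM in organoids and 108.5 to 216 CPM in tumors. Ifngr2, a subunit of the interferon gamma receptor, was higher in scASO organoids than in scASO tumors (0.91 ± 0.25), the only one of the 9 to pass.

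Of 18 other signal transducers and regulators, none passed the test in tumors (14 above 0, median 0.21). In organoids, with the block and without both libraries against their labels, 1 of 17 tested was called, Ikbke, a kinase upstream of the interferon regulatory factors, which was higher with ASOs against Mock (0.55 ± 0.13). Irf8 (-2.86 ± 0.52) and the nucleic acid sensor Tlr9 (-3.81 ± 0.75), both typical of leukocytes, led the 4 lower in scASO organoids than in scASO tumors, where 2 were higher. Of 37 further interferon-induced genes, none passed the test in tumors (33 above 0, median 0.21). Gbp4 (1.70 ± 0.60) and Tgtp1 (2.51 ± 1.02) had the smallest p-values there. In organoids, in the fit with the block and 14 libraries, Phf11d (-0.80 ± 0.15), Uba7, the activating enzyme of Isg15 (-0.35 ± 0.08), and Samhd1, a nucleotide hydrolase (-0.29 ± 0.08), were lower with ASOs against Mock and Ube2l6, the conjugating enzyme of Isg15, was higher (0.34 ± 0.09). Samhd1 (-0.97 ± 0.16) and Slfn2 (-1.37 ± 0.30) led the 8 that were lower in scASO organoids than in scASO tumors, with none higher.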

How the data were processed

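PolyA+ RNA was sequenced after TruSeq library preparation, per the labels' protocols. The submitters' processing notes name the mm9 build and, with no version or role, STAR, HTSeq, DESeq2, FastQC and CASAVA; annotation and strand setting are not stated there. The deposited files hold whole-number read counts per Ensembl gene ID. Of 37310 IDs, 32620 matched a symbol in GENCODE (GRCm38). The 5 further lines of each file, such as reads without a feature (8.34% to 24.6%, relative to the reads assigned to genes), stayed out of totals and tests. Reads with several alignments were listed apart (21.2% to 43.95%, relative to the reads assigned to genes). Members with close copies, such as Oas1a and Oas1g, may thus be undercounted.

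Tumors, organoids and all libraries were fitted separately with edgeR 4.0.16 (R 4.3.3; filterByExpr, TMM, glmQLFit, glmQLFTest), with Benjamini-Hochberg adjustment over all genes of a comparison and a threshold of 0.05; an SE is the log2 fold change divided by the root of F. Log2 CPM used a prior count of 2. Scripts were tested on simulated data. Replicate numbers were taken as a block in an alternative: same-numbered organoid libraries deviated from their group means together in 24 of 24 pairs (r 0.47 to 0.93), tumors in 2 of 9; of 72 differently numbered organoid pairs, 14 were above 0.1, up to 0.80. Other alternatives were RLE size factors, no filter, DESeq2 1.42.0, each library left out, and both libraries against their Malat1 label left out. The members, gene lists, roles and tests were chosen with earlier results of these data known. Members named with values were the 4 transcription factors Irf1, Irf7, Irf9 and Stat2, the 3 most abundant per system, and those with the smallest p per comparison.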

Additional observations from a re-analysis of the deposited data

Results flagged for a closer look

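Within groups of 4 libraries, 200 sets of values (the 39 members and their mean, in 5 groups) were examined for a library far from the other 3, measured as its gap to the nearest library over the whole range of log2 CPM, and set against Dixon's critical value. Chance flags about 1 in 20 such sets, and 10 were found. In ASO2 tumors Cmpk2, a mitochondrial nucleotide kinase, was far higher in tumor 4 (gap 0.978 of the range). In ASO1 organoids Ifit2 (0.862) and Ifih1 (0.851) were far lower in organoid 4. In ASO2 organoids Rtp4 was far lower in organoid 4 (0.944). In scASO organoids, Herc6 (0.860), Igtp (0.846), Ifi35 (0.837) and Iigp1 (0.833) were far higher in organoid 3, Isg20 was far higher in organoid 4 (0.901) and Dtx3l far lower in organoid 4 (0.890). The groups of 3 tumors, which hold the study's highest and lowest tumors for most members, are too small for this measure.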

How the results depend on the processing

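All counts are of members past an adjusted p of 0.05 in edgeR unless stated. The tumor comparisons and the 7 organoid comparisons without the block kept 0 calls with RLE size factors, without the filter on low counts, with DESeq2 and with each library left out. Of all genes in tumors, DESeq2 called 19, 117 and 42 for both ASOs, ASO1 and ASO2 against scASO, where edgeR called 0, 1 and 0. For ASO1 against ASO2 tumors DESeq2 called 162 genes and edgeR 0. The share of all genes called with each library left out is not reported here. With the replicate block, the tumor medians were 0.28, 0.32 and 0.25 for both ASOs, ASO1 and ASO2 against scASO, with no member called; tumor numbers share no deviations (2 of 9 pairs above r = 0.1). The replicate block in organoids, joined with leaving out both libraries against their Malat1 label (an alternative chosen after seeing the data), gave 8 calls in ASO against Mock and 5 in ASO1 against Mock, which ran from 1 to 19 and from 0 to 15 with a further library left out. The comparison of scASO organoids with scASO tumors gave 9 calls, 15 with DESeq2, 2 without both libraries and 2 to 24 with each library left out. The median of ASO1 minus ASO2 in tumors ran from -0.89 to 0.43. Single genes changed sign with 1 library left out. In tumors, both ASOs against scASO ran from -0.031 to 0.53 for Irf7, -0.061 to 0.19 for Irf9, -0.034 to 0.49 for Stat2, -0.041 to 0.83 for Oasl2 and -0.27 to 0.10 for Ifih1, and ASO1 minus ASO2 from -0.23 to 1.96 for Ifit2. In organoids without the block, ASO against Mock ran from -0.85 to 0.0011 for Ifi44, -0.77 to 0.12 for Oasl2, -1.09 to 0.059 for Oas2, -0.61 to 0.041 for Rtp4 and -0.82 to 0.18 for Isg15. Where a library decided these values, the cause was not tested. Replicates of 3 or 4 and the spread between organoid numbers limit what these comparisons can detect, and depth does so for the interferon ligands.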
